A study of Mus musculus with 20 samples.

Results

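Immediate early and stress genes were examined as a set of 10 of the 18193 genes measured on 20 Affymetrix arrays of mouse bone marrow cells. The 10 genes were taken by name, with earlier results of these data known: Fos, Fosb, Jun, Junb, Egr1, Atf3, Ier2, Ier3, Dusp1 and Nr4a1. The donors were adult C57/Bl6 mice of 8 to 10 weeks, and the cells are labelled as VE-cadherin+ endothelial cells of the bone marrow. Of 4 groups with 5 biological replicates each, 3 had received total body irradiation at 5 Gy. They were sampled at 6 hours, at 24 hours and at day 14, and the remaining group was non-irradiated. The labels do not say whether a replicate is 1 animal or a pool, so p-values measure the spread between these samples, which may be technical. A value is the linear signal of a probe set, and changes are log2 fold changes of irradiated over non-irradiated arrays, each ± SE from limma, with adjusted p-values from limma over all genes. A gene was called at an adjusted p under 0.05.

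Immediate early genes are transcribed without new protein synthesis when growth factors or stress activate MAP kinases, and their transcripts are normally short-lived. FOS and JUN proteins pair through leucine zippers to form the AP-1 transcription factor. EGR1 is a zinc finger factor, NR4A1 an orphan nuclear receptor and ATF3 a stress-induced factor of the ATF/CREB family. IER2 and IER3 are small products of early genes, and DUSP1 is the phosphatase that switches MAP kinases off. In endothelium these genes are known to respond to shear stress, growth factors and inflammatory cytokines.

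The 10 genes were covered by 11 probe sets with a single gene symbol, of which Jun had 2, and all 220 values exceeded the background of their array. That background, from 15.6 to 54.9 over the arrays, was the 95th percentile of 15 probe sets for bacterial genes that are absent from mice. Of 14 endothelial markers none was at background in any group, and Cdh5, which encodes VE-cadherin, averaged 8954 in 6-hour arrays, 4891 in 24-hour arrays and 1293 in day 14 arrays, with 3186 in non-irradiated arrays. Markers of other marrow cells were also measured, the granulocyte list with a summed signal of 123858 to 143478 there, while C1qa was at background at 6 hours and Rag1 at 6 and 24 hours. Bacterial hybridization controls differed between groups, with a mean log2 signal of 12.61 at 6 hours, 11.92 at 24 hours, 11.93 at day 14 and 12.55 in the non-irradiated group. The excess of the Gapdh 3′ over 5′ probe set in log2, which reads RNA integrity and amplification, averaged 1.58, 0.77 and 0.89 at these times and 1.33 in the non-irradiated group, and its part in the results was not tested. On both measures every 24-hour and day 14 array lay below every 6-hour and non-irradiated array. The hybridization controls were at most 12.17 against at least 12.40, and the Gapdh excess at most 1.04 against at least 1.26. Comparisons of 24-hour or day 14 arrays with 6-hour or non-irradiated ones cross this split, which cannot be told apart there from the group difference. The deposited scaling fixes the trimmed mean of an array, while the median signal of a day 14 array was 87.3 to 109 against 167 to 194 in non-irradiated arrays. In that comparison the median of all genes changed by -0.18, against -0.07 at 24 hours and -0.02 at 6 hours.

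The first comparison asked how the cells differed 6 hours after irradiation. All 10 genes were higher than in non-irradiated arrays and 0 lower, where 12.9% of all genes were called higher and 14.5% lower. The changes ran from 0.25 for Dusp1 to 1.86 for Ier3, with a median of 0.70. For 8 of them every 6-hour array exceeded every non-irradiated array, a separation seen in 7.59% of all genes upwards and 8.05% downwards. Junb and Atf3 overlapped. All 10 stayed positive under quantile normalization and under centring of the arrays. In the same arrays 13 of 14 endothelial markers and 6 of 9 stromal and osteoblast markers were higher. Erythroid markers were lower in 8 of 9 cases and granulocyte markers in 9 of 11. The part of these marker shifts in the changes of the 10 genes was not tested.

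At 24 hours 5 genes were lower than in non-irradiated arrays (Fosb, Jun, Atf3, Dusp1 and Nr4a1), 1 was higher (Ier2) and 4 were not called (Fos, Junb, Egr1 and Ier3), where 13.8% of all genes were lower and 15.7% higher. Every 24-hour array lay below every non-irradiated array for 4 genes (12.9% of all genes) and above for Ier2 (15.1%). Atf3 had the largest of these changes in size, at -1.21. The median of the 10 changes was -0.18. With arrays centred on the median probe set, which adds 0.38 to every 24-hour change, 3 genes were higher and 1 lower, and Jun (0.18) and Dusp1 (0.08) were above 0. That centring called 4950 of all 18193 genes higher and 1139 lower. Of the endothelial markers 8 were higher and 0 lower at this time.

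At day 14, 6 genes were lower than in non-irradiated arrays (Fos, Fosb, Jun, Atf3, Ier3 and Dusp1), 0 were higher and 4 were not called, where 13% of all genes were lower and 9.47% higher. For all 6 the day 14 arrays lay entirely below the non-irradiated ones, as in 11.6% of all genes, and 11.4% lay entirely above. The median of the 10 changes was -0.54. For all but 2 of the 6 genes these falls depended on the scaling. Quantile normalization kept all 6 and added Egr1, with 7 lower and 0 higher (1136 and 1784 of all genes). With arrays centred on the median gene 4 were lower (Fosb, Jun, Atf3 and Dusp1) and 0 higher (1363 and 3653 of all genes). With each array centred on its median probe set, which adds 0.90 to every day 14 change, Fosb (-1.36) and Atf3 (-0.59) were still lower, while Fos, Egr1, Ier2, Ier3 and Nr4a1 were called higher. That last centring called 8210 of all 18193 genes higher and 461 lower, so calls upwards were common under it. Of the endothelial markers 1 was higher and 9 lower at this time.

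**Figure D1:**
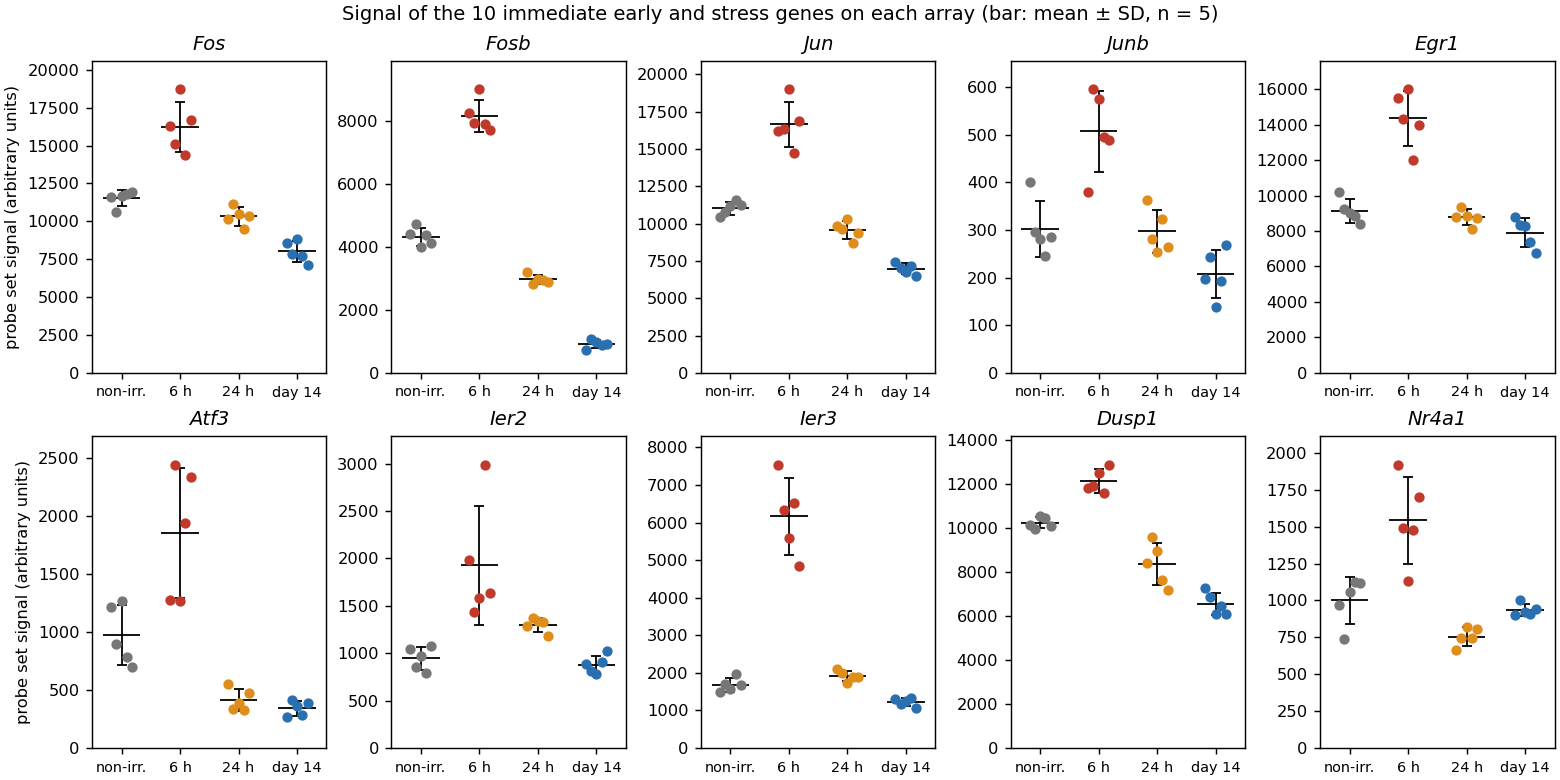
Probe set signal (arbitrary units, linear axis from 0) of each of the 10 genes on the 20 arrays, by group, with points for arrays and bars for the mean ± SD of 5 arrays; Jun is shown by its brighter probe set. The 6-hour arrays are the highest group for every gene, Fosb at day 14 lies between 718 and 1064, and several other day 14 falls turn into rises with arrays centred on their median probe set.

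**Figure D2:**
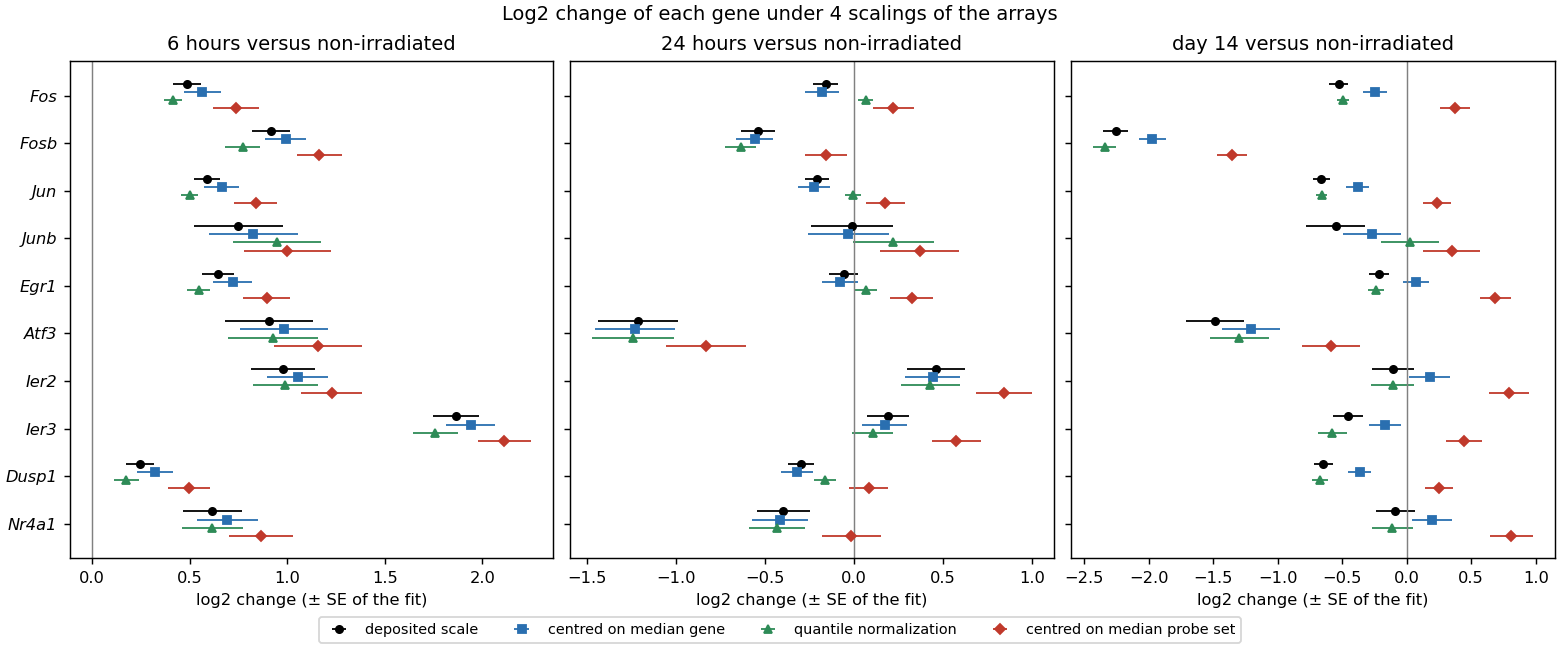
Log2 change ± SE of each gene against non-irradiated arrays at 6 hours, 24 hours and day 14, on the deposited scale and under 3 other scalings. All 6-hour values are above 0, and at day 14 those of Fosb and Atf3 stay below 0 in all 4 while Fos moves between -0.53 and 0.37.

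Stretches of 250 bases before a RefSeq transcript start are shown for 4 of the genes, which all hold TGACG, the half-site of the cyclic AMP response element, in differing numbers of copies. The start used is not always the outermost one. The window of Nr4a1 lies inside the annotated gene, and that of Fosb overlaps the gene's 5′ end, with its TGACG inside the gene span. The sequences are from RefSeq on GRCm38.p6, 5′ to 3′ on the strand of the gene, with matches to TGACG on either strand, and to the full TGACGTCA, in capitals.
Fos (chr12:85473640-85473889, plus strand): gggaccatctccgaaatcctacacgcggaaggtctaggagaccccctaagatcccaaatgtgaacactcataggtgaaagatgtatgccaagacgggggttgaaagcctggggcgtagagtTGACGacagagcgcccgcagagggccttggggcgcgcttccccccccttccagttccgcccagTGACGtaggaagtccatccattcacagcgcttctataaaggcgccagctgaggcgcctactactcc
Fosb (chr7:19310046-19310295, minus strand): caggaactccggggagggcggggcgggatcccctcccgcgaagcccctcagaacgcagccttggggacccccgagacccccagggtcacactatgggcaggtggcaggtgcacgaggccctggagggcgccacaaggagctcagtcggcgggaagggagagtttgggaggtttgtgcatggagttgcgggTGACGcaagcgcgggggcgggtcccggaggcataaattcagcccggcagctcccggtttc
Dusp1 (chr17:26508473-26508722, minus strand): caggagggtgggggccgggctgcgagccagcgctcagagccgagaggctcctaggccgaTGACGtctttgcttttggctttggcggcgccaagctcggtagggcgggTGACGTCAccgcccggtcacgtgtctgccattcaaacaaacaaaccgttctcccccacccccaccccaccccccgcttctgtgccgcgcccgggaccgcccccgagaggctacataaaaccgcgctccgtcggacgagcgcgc
Nr4a1 (chr15:101266596-101266845, plus strand): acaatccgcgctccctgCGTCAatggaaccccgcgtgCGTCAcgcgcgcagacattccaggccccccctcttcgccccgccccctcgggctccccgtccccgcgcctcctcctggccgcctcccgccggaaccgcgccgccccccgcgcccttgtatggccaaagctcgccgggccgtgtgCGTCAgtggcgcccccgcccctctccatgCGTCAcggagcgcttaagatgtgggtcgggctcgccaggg

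Of the 8 genes with a printable window 6 held TGACG on either strand, as did 17.8% of 32841 windows of the same length. Fos had 2 copies, Fosb 1, Dusp1 3 and Nr4a1 4, with those of Nr4a1 all on the opposite strand. The palindrome TGACGTCA, in which TGACG is read on both strands, was found in Dusp1 alone of the 8, against 1.55% of all windows. The CArG box, bound by serum response factor, and the AP-1 motif TGANTCA were in 0 of the 8 windows, against 1.47% and 6.75% of all windows. GCGNGGGCG, a motif of the EGR type, was in Fosb and Nr4a1 (4.7% of all windows), and overlapped GGGCGG in both. GGGCGG itself was in 7 of the 8 and in 32.7% of all windows. These are matches of letters in a fixed window and were not tested against the arrays. Egr1 and Ier2 had no window here, and bases outside the windows were not searched. A motif not found in these windows may therefore still be present near the genes.

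Fos encodes the FOS partner of AP-1. It read 16316, 15110, 18702, 14360 and 16662 on the 6-hour arrays, against 11590, 10629, 11683, 11786 and 11940 on the non-irradiated arrays. The lowest 6-hour array was above the highest non-irradiated one, and the change was 0.49 ± 0.072 (adjusted p = 7.52e-06). Signals of 10123, 11166, 10485, 9509 and 10319 followed at 24 hours, which overlapped the non-irradiated ones (-0.16 ± 0.072, adjusted p = 0.0989). The day 14 arrays read 8547, 7828, 8831, 7717 and 7122, all below the non-irradiated arrays. That change was -0.53 ± 0.072 (adjusted p = 7.91e-06), but it was 0.37 with arrays centred on the median probe set and missed the threshold when they were centred on the median gene (-0.25, adjusted p = 0.0557).

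Fosb, a second FOS family member that also pairs with JUN proteins, moved further. Its 6-hour arrays read 8236, 7938, 8996, 7891 and 7713, against 4414, 4725, 3991, 4360 and 4123 in non-irradiated arrays. None of the 6-hour values came near the non-irradiated range, and the change was 0.92 ± 0.097 (adjusted p = 4.94e-08). At 24 hours it read 3214, 2829, 2967, 2963 and 2894, and at day 14 it read 718, 1064, 971, 877 and 923. The 24-hour arrays lay below the non-irradiated ones and the day 14 arrays lower still. The changes were -0.54 ± 0.097 at 24 hours (adjusted p = 9.4e-05) and -2.26 ± 0.097 at day 14 (adjusted p = 1.82e-14). Of all genes 1.86% had a lower change than Fosb at day 14. Only centring on the median probe set ended the 24-hour call (-0.16, adjusted p = 0.346).

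Jun, the usual partner of FOS in AP-1, followed Fos. Its brighter probe set averaged 16643 ± 1530 at 6 hours against 11037 ± 430 in non-irradiated arrays (SD, n = 5 each), and the groups did not overlap. The second probe set averaged 10779 ± 1194 at 6 hours against 5162 ± 218 in non-irradiated arrays. The 6-hour change was thus 0.59 ± 0.066 on the brighter probe set and 1.06 ± 0.075 on the other (limma on all probe sets, adjusted p = 4.87e-11). At 24 hours they disagreed, with -0.21 ± 0.066 (adjusted p = 0.0193) on the brighter and 0.03 ± 0.075 (adjusted p = 0.829) on the other. The 24-hour call was also lost without 24-hour replicate 4 (adjusted p = 0.0654) and with quantile normalization (-0.0059, 0.941). No intensity trend (0.137), probe sets averaged per gene (0.27) and arrays centred on the median gene (0.058) ended it too. At day 14 the probe sets read -0.66 ± 0.066 and -0.62 ± 0.075 (adjusted p = 7.48e-08 and 8.03e-07), with the brighter at 0.24 when arrays were centred on the median probe set.

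Junb, a JUN family member with weaker transactivation than JUN, varied more between arrays than Jun. It read 380, 595, 574, 496 and 489 at 6 hours, against 400, 295, 281, 245 and 285 in non-irradiated arrays. One 6-hour array, replicate 1, fell inside the non-irradiated range. The change of 0.75 ± 0.23 (adjusted p = 0.0148) lost its call with array weights (0.0675) and with only those 2 groups in the fit (0.0554). The 24-hour signals of 253 to 363 and day 14 signals of 138 to 268 gave changes of -0.01 ± 0.23 and -0.55 ± 0.23 (adjusted p = 0.975 and 0.0851), or 0.37 and 0.35 with arrays centred on the median probe set. The day 14 value was 0.026 with quantile normalization, and it was called lower with probe sets averaged per gene (adjusted p = 0.0387), with no intensity trend (0.0434) and with array weights (0.0387).

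Differences between genes on the same array are unaffected by a single scaling factor per array, though not by quantile normalization. They were formed for 3 pairs chosen after the data had been seen, and the 9 exact two-sided permutation tests of 5 against 5 arrays were adjusted together (smallest possible p 0.00794). The difference of Fosb minus Fos was higher by 0.43 at 6 hours than in non-irradiated arrays, and it differed by -0.38 at 24 hours and by -1.73 at day 14, each with adjusted exact p = 0.0238. In each case the 5 irradiated arrays did not overlap the 5 non-irradiated ones. Thus the signals of the FOS family pair changed unequally at all 3 times. Fos and Fosb were each read by a single probe set, so this cannot be told apart from unequal responses of the probe sets. For Junb minus Jun the differences were 0.16, 0.19 and 0.11 (adjusted exact p = 0.411, 0.408 and 0.619), at SDs of 0.24 to 0.39 within groups. For Fos minus Jun they were -0.10 at 6 hours (adjusted exact p = 0.0358), 0.05 at 24 hours (0.408) and 0.13 at day 14 (0.0428). Jun entered by its brighter probe set, which changed by 0.59, -0.21 and -0.66 at these times. The other probe set of Jun changed by 1.06, 0.03 and -0.62. The differences with Jun at 6 and 24 hours thus depend on the probe set used.

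**Figure D3:**
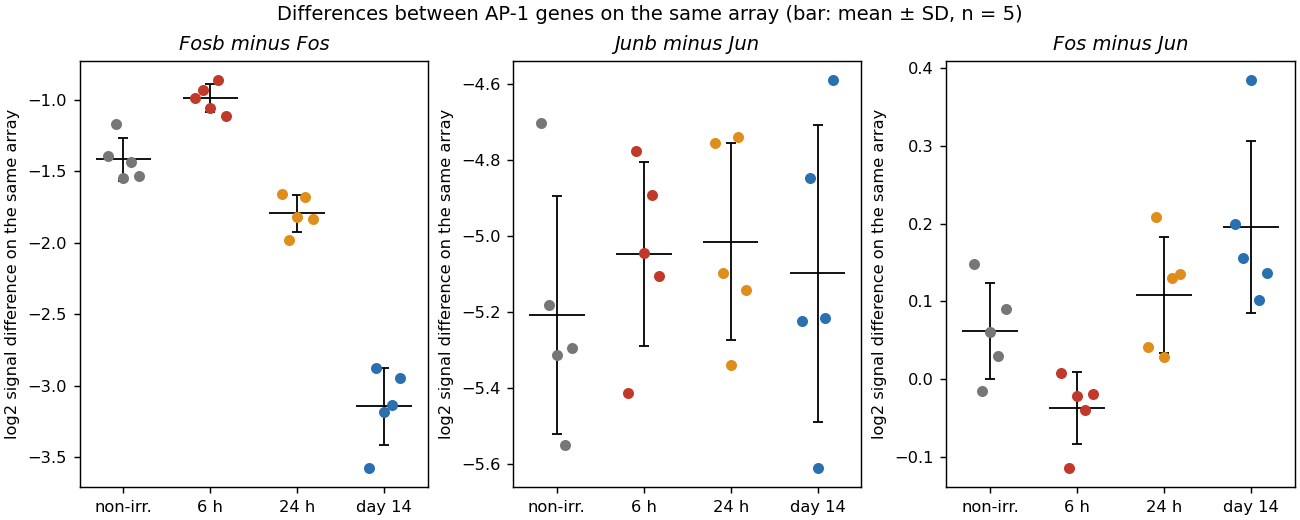
Difference in log2 signal between genes of the AP-1 families on the same array, by group, with points for arrays and bars for the mean ± SD of 5 arrays. The offset from 0 depends on the probe sets and carries no meaning. Fosb minus Fos averages -0.99 at 6 hours, -1.79 at 24 hours and -3.14 at day 14, with -1.42 in non-irradiated arrays.

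Egr1, a growth-responsive zinc finger factor, averaged 14356 ± 1555 at 6 hours against 9149 ± 673 in non-irradiated arrays (SD, n = 5 each). The groups were apart and the change was 0.65 ± 0.081 (adjusted p = 6.54e-07). It averaged 8775 ± 452 at 24 hours and 7904 ± 806 at day 14, both overlapping the non-irradiated arrays. The changes were -0.06 ± 0.081 (adjusted p = 0.641) and -0.21 ± 0.081 (adjusted p = 0.0565). The day 14 value passed the threshold without 6-hour replicate 3 (0.0473) or 4 (0.0327), without day 14 replicate 1 (0.0363) and without non-irradiated replicate 5 (0.0472). It also passed with quantile normalization (-0.24, adjusted p = 0.00799), array weights (0.0201), only those 2 groups in the fit (0.0362), probe sets averaged per gene (0.0421) and dim genes left out (0.0435). It was 0.07 with arrays centred on the median gene and 0.68 (adjusted p = 2.97e-05) with the median probe set.

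Nr4a1, the nuclear receptor also known as Nur77, had a different order of groups. It read 1922, 1491, 1129, 1476 and 1701 at 6 hours, against 969, 742, 1058, 1126 and 1120 in non-irradiated arrays. The lowest 6-hour array was just above the highest non-irradiated one (change 0.62 ± 0.15, adjusted p = 0.00262). At 24 hours it read 663, 744, 820, 746 and 804, and at day 14 898, 1001, 919, 908 and 942. It was lowest at 24 hours, and all day 14 arrays lay above all 24-hour arrays. The 24-hour change against non-irradiated arrays was -0.40 ± 0.15 (adjusted p = 0.049). That call was lost without any one 24-hour or day 14 array and without non-irradiated replicate 1, 3, 4 or 5 (adjusted p from 0.0541 to 0.116). It was lost too with no intensity trend (0.0504) and with arrays centred on the median probe set (-0.014, 0.962). At day 14 the change was -0.09 ± 0.15 (adjusted p = 0.711), or 0.20 and 0.81 with arrays centred on the median gene and probe set.

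Atf3 encodes a factor induced by genotoxic and other stress, and it is a known p53 target. It read 1273, 2440, 1264, 1938 and 2328 at 6 hours, against 1215, 898, 1267, 782 and 701 in non-irradiated arrays. The 6-hour arrays were uneven, with replicates 1 and 3 at the upper edge of the non-irradiated range. The change was 0.91 ± 0.23 (adjusted p = 0.00296). At 24 hours Atf3 read 552, 336, 390, 328 and 474, and at day 14 268, 412, 357, 285 and 384. Both sets lay wholly below the non-irradiated arrays. The changes were -1.21 ± 0.23 (adjusted p = 0.000131) and -1.49 ± 0.23 (adjusted p = 3.36e-05). Over all alternatives tried the adjusted p stayed at or under 0.00466 at 24 hours and 0.0321 at day 14.

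Ier3, also known as IEX-1, is an early gene controlled by NF-kB and p53 that modulates cell death, and it had the largest 6-hour change of the 10. It read 7546, 6341, 5592, 6513 and 4838 at 6 hours, against 1489, 1716, 1569, 1974 and 1663 in non-irradiated arrays. The groups were far apart, and the change of 1.86 ± 0.12 (adjusted p = 4e-12) exceeded that of 98.3% of all genes. The 24-hour signals of 1725 to 2103 overlapped the non-irradiated ones (0.19 ± 0.12, adjusted p = 0.24). The day 14 signals of 1074 to 1336 lay below them (-0.45 ± 0.12, adjusted p = 0.00679), but the change was 0.45 with arrays centred on the median probe set and -0.17 (adjusted p = 0.339) with the median gene.

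Ier2, a nuclear early gene product, read 1987, 1438, 1581, 2991 and 1638 at 6 hours, against 1049, 856, 967, 796 and 1076 in non-irradiated arrays. Replicate 4 stood well above the other 6-hour arrays, and the groups did not overlap (0.98 ± 0.16, adjusted p = 3.73e-05). Of the 10 genes it alone was called higher at 24 hours, with signals of 1177 to 1372 (0.46 ± 0.16, adjusted p = 0.0331). That call was lost without 24-hour replicate 1, 2, 3 or 4 (adjusted p from 0.0541 to 0.0676) and without non-irradiated replicate 2 (0.0749) or 4 (0.0881). Quantile normalization also ended it (0.43, adjusted p = 0.0525). At day 14 the signals of 776 to 1021 overlapped the non-irradiated ones (-0.10 ± 0.16, adjusted p = 0.679), a value of 0.18 and 0.79 with arrays centred on the median gene and probe set.

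Dusp1, the MAP kinase phosphatase that acts on p38 and JNK, changed least at 6 hours. It averaged 12131 ± 531 at 6 hours against 10228 ± 258 in non-irradiated arrays (SD, n = 5 each), a change of 0.25 ± 0.073 (adjusted p = 0.0124) without overlap. The call was lost with no intensity trend (0.0985) and with array weights (0.095). It averaged 8350 ± 964 at 24 hours and 6546 ± 506 at day 14. Both groups lay below the non-irradiated arrays, with changes of -0.30 ± 0.073 (adjusted p = 0.00235) and -0.65 ± 0.073 (adjusted p = 4.79e-07), but 0.08 and 0.25 with arrays centred on the median probe set. The 24-hour call was also lost with quantile normalization (-0.16, adjusted p = 0.0507).

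Between irradiated groups all 10 genes were lower at 24 hours than at 6 hours (10.1% of all genes, with 13.7% higher). None of the 10 overlapped, with every 24-hour array below every 6-hour array (6.61% of all genes, with 7.99% above). The changes ran from -2.12 for Atf3 to -0.52 for Ier2. The Ier2 call was lost without 6-hour replicate 4 (adjusted p = 0.0704) or 24-hour replicate 5 (0.0529), with arrays centred on the median probe set (0.0744) and with only those 2 groups in the fit (0.0759). That of Junb was lost with array weights (0.0665). At day 14 all 10 were lower than at 6 hours (25% of all genes, with 19.8% higher), and none overlapped (15.1% below and 13.1% above among all genes). They ran from -3.17 for Fosb to -0.70 for Nr4a1. With arrays centred on the median probe set 7 were called lower, and Egr1 (-0.21, adjusted p = 0.162), Dusp1 (-0.24, 0.0684) and Nr4a1 (-0.054, 0.822) were not. Of all 18193 genes that centring called 1756 lower and 6650 higher. At day 14 against 24 hours 6 were lower (21.7% of all genes, with 15.2% higher), with Fosb at -1.72, and 5 lay entirely below (20.6%). The 4 others were not called, among them Nr4a1 at 0.31 ± 0.15 (adjusted p = 0.114), whose day 14 arrays lay entirely above the 24-hour ones (15.7% of all genes). With arrays centred on the median probe set the differences of Fos (0.15), Jun (0.06) and Dusp1 (0.17) between these times were above 0. Comparisons that share a group are not independent of each other. Those with 6 hours also cross the split between arrays in hybridization controls and Gapdh signals given above, whose part was not tested.

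Over the 20 arrays the 10 genes had pairwise correlations of 0.508 to 0.984 (median 0.796 of 45 pairs), against a median of 0.097 between them and all other genes. The arrays form 4 groups, and these values mostly describe the differences between groups. For deviations from the group means the median was -0.064, with 0.720 for Fos and Jun and 0.701 for Fos and Egr1 at the upper end. The 2 genes most like each member over the 20 arrays, by Pearson correlation among 16302 other named genes, were Nfkbiz (0.980) and Fabp4 (0.980) for Fos, and Nfkbiz (0.990) and Klf6 (0.985) for Jun. Nfkbiz encodes a nuclear regulator of NF-kB and Klf6 an early response zinc finger factor. Fosb was nearest to Mcf2l (0.985) and to Flt1 (0.981), a VEGF receptor gene of endothelium, and Junb to Cgnl1 (0.913) and Thsd1 (0.904). Egr1 was nearest to the JUN family gene Jund (0.950) and to Ercc1 (0.941), and Dusp1 to Ankrd11 (0.955) and Son (0.952). The pair for Ier3 was Ctla2b (0.969) and Socs3 (0.962), and for Ier2 Ctnnd1 (0.943) and Btbd3 (0.942). Atf3 was nearest to Sbno2 (0.935) and Ms4a2 (0.933), Nr4a1 to Mcpt8 (0.878) and Pim1 (0.872), of which Ms4a2 and Mcpt8 are genes of mast cells and basophils.

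Other genes of the pathway were read from 5 lists chosen for their roles, with earlier results of these data known. Their counts therefore describe these arrays and are not independent support. At 6 hours 29 of 39 other primary response genes were higher and 1 lower (median change 0.75, against -0.02 over all genes), with the polo-like kinase gene Plk2 at 2.04 ± 0.18 (its other probe set -0.55) and Csrnp1 at 1.76 ± 0.19. Ier5l, also called higher, averaged 168 at 6 hours against 22.6 in non-irradiated arrays, of which 2 of 5 exceeded background. Of 13 measured AP-1 partners 7 were higher and 1 lower (median 0.67). Maff, a small MAF protein gene, averaged 4063 at 6 hours against 896 in non-irradiated arrays (2.23 ± 0.18, adjusted p = 3.07e-10), and the FOS relative Fosl2 and the JUN dimerization gene Jdp2 read 0.94 ± 0.11 and 0.99 ± 0.13. Among 11 measured SRF, TCF and CREB family activators, which act on the promoters of these genes, 6 were higher and 0 lower (median 0.61). Srf itself changed by 1.17 ± 0.16 (adjusted p = 2.33e-06), Elk3 by 1.01 ± 0.12 and Mrtfb by 0.77 ± 0.20. Feedback inhibitors of MAP kinases and EGR proteins were higher in 9 of 17 cases and lower in 0 (median 0.71), including Spry2 (1.26 ± 0.15), Dusp5 (1.38 ± 0.25) and Dusp14 (1.57 ± 0.47, with 4 of 5 non-irradiated arrays above background). The MAP kinase cascade itself had 2 higher and 1 lower of 15 measured (median -0.14), namely Map2k1 (0.82 ± 0.16), Rps6ka3 (0.64 ± 0.13) and Braf (-0.42 ± 0.14, with other probe sets between -1.51 and 0.61).

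At 24 hours feedback inhibitors were higher in 9 of 17 cases and lower in 1 (median 0.64, against -0.07 over all genes). Spry1, an inhibitor of receptor tyrosine kinase signalling, averaged 2981 at 24 hours against 899 in non-irradiated arrays (1.75 ± 0.15, adjusted p = 8.79e-10). The EGR co-repressor gene Nab2 changed by 1.82 ± 0.35 and Dusp4 by 2.18 ± 0.61, with 4 of 5 non-irradiated arrays above background for Dusp4. Of 39 other primary response genes 10 were higher and 5 lower (median 0.04), with Ier5l called higher at a mean of 111 (non-irradiated level as above, largely at background), Gadd45g at 0.66 ± 0.16 and the NF-kB inhibitor gene Tnfaip3 at -0.97 ± 0.16. AP-1 partners had 3 higher (Maf at 0.82 ± 0.10, Jdp2 at 1.27 ± 0.13 and Batf at 1.51 ± 0.56, with 4 of 5 non-irradiated arrays above background) and 1 lower of 13. The SRF, TCF and CREB activators had 4 higher and 1 lower of 11, led by Mef2a (0.71 ± 0.17, other probe sets down to -0.67), Elk3 (0.70 ± 0.12, down to -0.66) and Mrtfa (0.65 ± 0.20). In the MAP kinase cascade 2 were higher, Map2k1 (1.38 ± 0.16) and Mapkapk2 (0.72 ± 0.25), and 1 was lower, Map3k1 (-1.03 ± 0.20). With arrays centred on the median probe set the counts at 24 hours were 20 higher and 1 lower for the other primary response genes. They were 8 and 1 for the cascade, 13 and 0 for the feedback inhibitors and 7 and 0 for the AP-1 partners. The SRF, TCF and CREB activators had 7 and 0. Of all 18193 genes that centring called 4950 higher and 1139 lower at 24 hours.

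At day 14, 5 of the 39 other primary response genes were higher and 17 lower (median -0.27, against -0.18 over all genes), but 22 were higher and 5 lower with arrays centred on the median probe set. Egr2, an EGR family gene, averaged 1851 at day 14 against 533 in non-irradiated arrays (1.79 ± 0.28, adjusted p = 3.9e-05). Klf4, a factor of quiescent endothelium and of monocytes, averaged 1976 at day 14 against 5384 in non-irradiated arrays (-1.45 ± 0.084), and Plk3 changed by -1.97 ± 0.25. AP-1 partners had 0 higher and 4 lower of 13, or 8 and 0 when centred in that way, so Jund (-0.56 ± 0.082, centred 0.34), Mafg (-0.53 ± 0.17, centred 0.37) and Atf7 (-0.57 ± 0.18, centred 0.33) have no settled direction. The same holds for the SRF, TCF and CREB activators, with 0 higher and 4 lower of 11 as deposited and 7 and 0 when centred, among them Mrtfa (-0.58 ± 0.20, centred 0.32), Mef2c (-0.44 ± 0.12, centred 0.46) and Elk3 (-0.41 ± 0.12, centred 0.49). Feedback inhibitors had 1 higher, Spry2 (0.59 ± 0.15), and 1 lower of 17, Dusp2 (-1.19 ± 0.32), but 10 higher and 0 lower when centred. The cascade had 3 higher and 3 lower of 15, including Map2k2 (0.98 ± 0.21), Map2k3 (0.95 ± 0.20) and Map3k5 (-0.87 ± 0.13, centred 0.02). When centred, 12 cascade genes were higher and 0 lower. Of all 18193 genes that centring called 8210 higher and 461 lower at day 14.

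**Figure D4:**
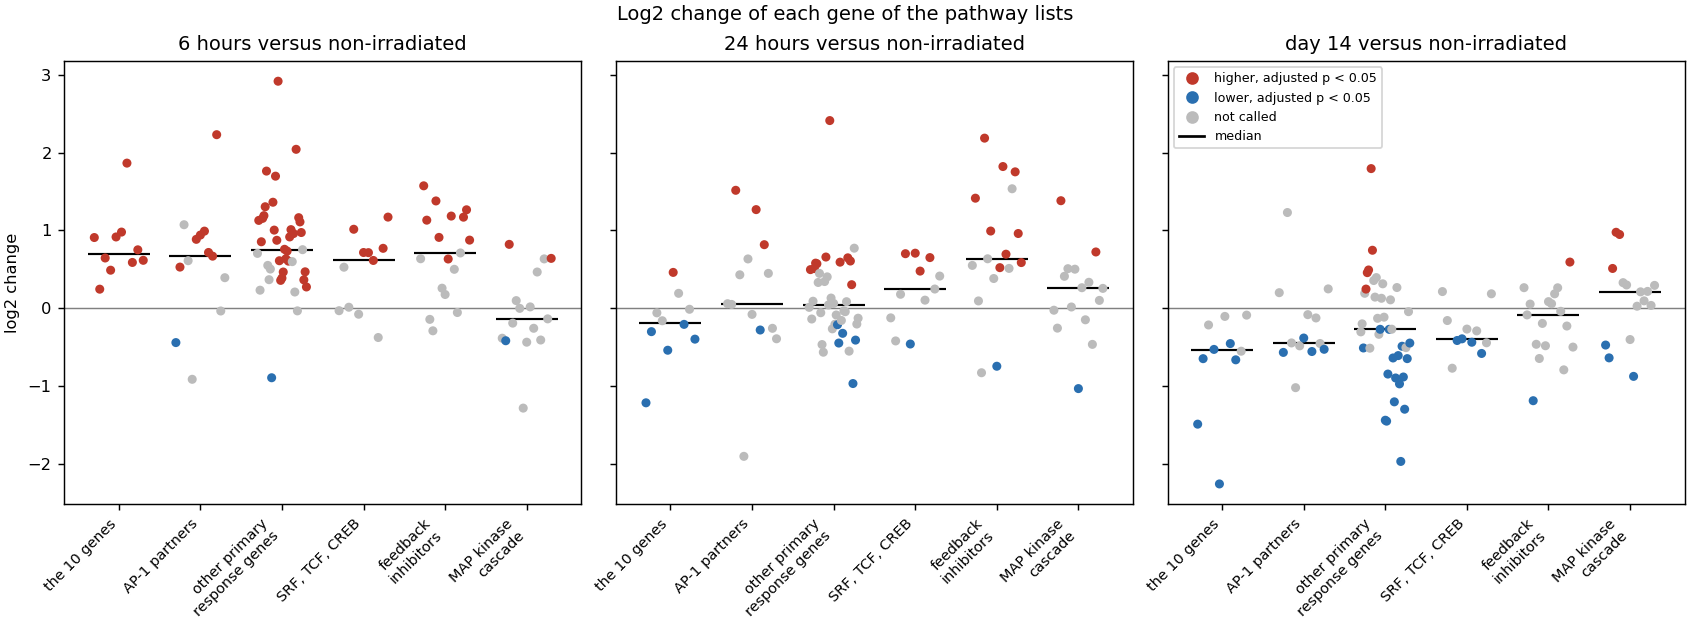
Log2 change against non-irradiated arrays of each gene of the 10 and of the 5 pathway lists, at 6 hours, 24 hours and day 14, coloured by call, with a line at the median of each list. The medians at 6 hours are 0.70 for the 10 genes and 0.71 for the feedback inhibitors, and at 24 hours -0.18 and 0.64; many day 14 falls turn into rises with arrays centred on their median probe set.

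Endothelial markers moved in the same arrays. Of the 14 markers 13 were higher and 0 lower at 6 hours (median change 1.53), 8 and 0 at 24 hours (0.72), and 1 and 9 at day 14 (-0.68). Their summed signal ran from 47803 to 56146 at 6 hours, 26859 to 29230 at 24 hours and 9610 to 10919 at day 14, against 17267 to 18416 in non-irradiated arrays. Summed erythroid markers were at 5197 to 9417, 2150 to 2875 and 54313 to 67805 at these times, against 44942 to 48352 in non-irradiated arrays, and Hba-a1 was at background at day 14. Pan-leukocyte markers summed to 45675 to 52082, 46668 to 52082 and 37895 to 40770, against 46911 to 53284 in non-irradiated arrays. Megakaryocyte markers, of which 6 of 8 were higher and 1 lower at 6 hours, summed to 28173 to 36475, 15600 to 17007 and 10712 to 12352, against 11819 to 13179 in non-irradiated arrays. Monocyte and macrophage markers, of which 1 of 11 was higher and 2 lower at 6 hours, summed to 4336 to 6265, 3596 to 4255 and 2601 to 3224, against 3255 to 3884 in non-irradiated arrays. Granulocyte markers summed to 93918 to 112884, 101178 to 126528 and 88683 to 110113, against 123858 to 143478 in non-irradiated arrays. For stromal and osteoblast markers the sums were 111827 to 136246, 88105 to 110933 and 71684 to 88263, against 96428 to 105352. B lineage markers gave 1703 to 3395, 2288 to 2844 and 2245 to 2472, against 2403 to 2870. The part of these shifts in the changes of the 10 genes was not tested. In such bulk samples fewer cells of a type and less RNA per cell cannot be told apart.

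Set against the mean of the 14 endothelial markers on the same array, the 10 genes ran differently from their own levels, a comparison chosen after the data had been seen and likewise unaffected by a single factor per array. The marker mean itself changed by 1.52 at 6 hours, 0.62 at 24 hours and -0.74 at day 14. The median of all genes changed by -0.02, -0.07 and -0.18. A typical gene thus also reads lower at 6 and 24 hours and higher at day 14. The share of all genes doing so was not computed, so the counts below do not single out the 10 genes. At 6 hours 7 of the 10 were lower relative to these markers than in non-irradiated arrays and 0 higher (exact permutation tests, 30 adjusted together, adjusted p of those 7 all 0.0119), with Dusp1 at -1.27 and Fos at -1.03. Ier3 read 0.34 (adjusted exact p = 0.0824). At 24 hours 9 were lower and 0 higher, from -1.84 for Atf3 to -0.43 for Ier3, and Ier2 read -0.16 (adjusted exact p = 0.168). At day 14 Fosb (-1.52, adjusted exact p = 0.0119) and Atf3 (-0.75, 0.0227) were lower, while 5 were higher, among them Nr4a1 (0.65), Ier2 (0.63) and Egr1 (0.52), each with adjusted exact p = 0.0119. Fosb and Atf3 are the 2 genes of the set that were below the non-irradiated arrays at day 14 under every scaling tried and relative to these markers.

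**Figure D5:**
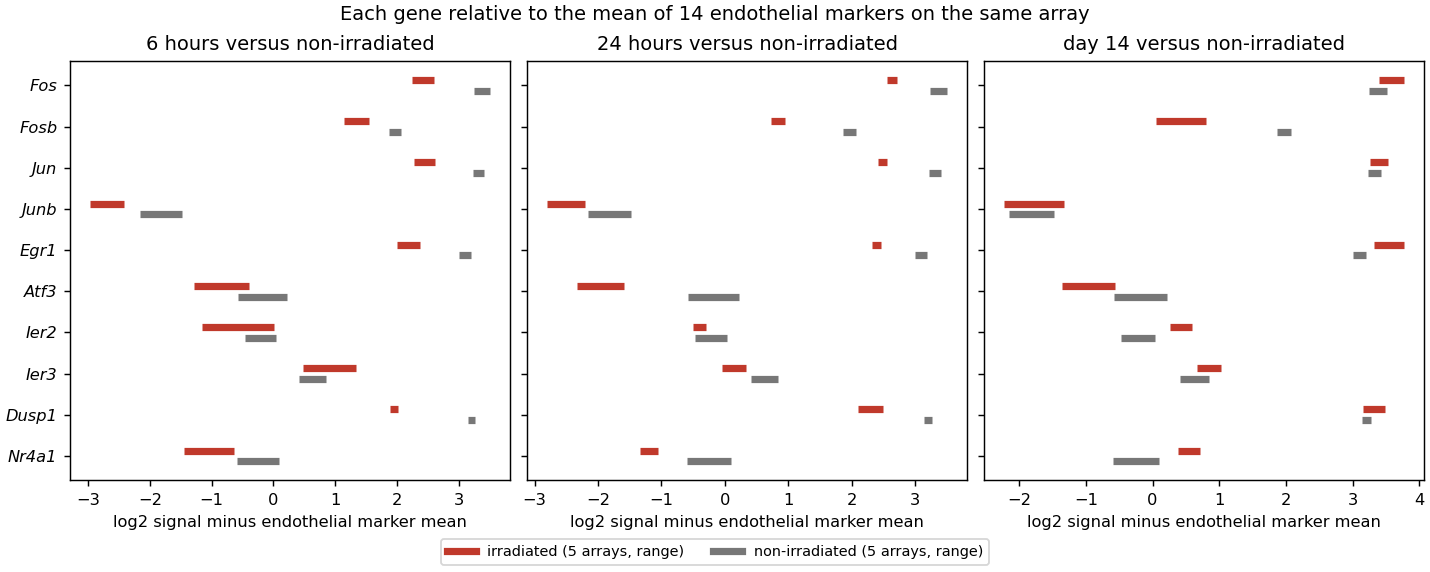
Log2 signal of each of the 10 genes minus the mean log2 signal of 14 endothelial markers on the same array, shown as the range of 5 irradiated arrays (upper bar) and of 5 non-irradiated arrays (lower bar) at 6 hours, 24 hours and day 14. The position along the axis depends on the probe set and only the offset between bars compares groups. At day 14 the irradiated bar lies to the left for Fosb and to the right for Egr1, Ier2 and Nr4a1, with offsets of -1.52, 0.52, 0.63 and 0.65.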

How the data were processed

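RNA of bone marrow cells was profiled on 20 single-colour Affymetrix arrays. Per the labels, a Qiagen RNeasy micro kit gave the RNA and a Nugen Ovation kit the amplified, biotin-labelled product. What the authors deposited is a linear intensity for each probe set. The mean of every array after trimming 2% at each end was 500.0, so the scaling is read from the values alone. Affymetrix Expression Console appears beside Transcriptome Analysis Console in the submitters' processing notes. How probes were summarized and background corrected is not given in the sources used here. Precision is limited by there being 5 arrays a group.

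Of 45101 probe sets 34945 had 1 symbol in the platform's annotation, 932 several, 9160 none here, and 64 were controls. Values were log2 transformed after adding 1, and each gene was represented by its brightest probe set (18193 genes). Groups were compared with limma 3.58.1 in R 4.3.3 (lmFit, eBayes with intensity trend, 1 model of 4 groups, no block), with Benjamini-Hochberg adjustment over all genes. Data were simulated for 6 hours against non-irradiated on 18193 genes, with normal noise and 200 genes changed, 50 at each fold. Of genes changed 1.5-fold, 2-fold, 4-fold and 8-fold, 18%, 30%, 70% and 86% were recovered, and 2 of 104 calls were false. The measured comparison called 4983 genes, which makes its adjusted threshold looser. These recovery rates therefore do not carry over to it. Members and lists were chosen with earlier results of these data known. Named genes were the 10 members, up to 3 called genes with the largest absolute change per list and time, and the 2 genes most correlated with each member. Same-numbered replicates did not deviate together (30 correlations from -0.067 to 0.049), and the main fit used no pairing. The labels only number the replicates, and such correlations cannot show whether the numbers mark a shared origin. Alternatives were quantile normalization, 2 kinds of centring, filters, probe set choices, a larger added value, other variance models, a replicate block and leaving out each array. Sequences came from RefSeq (GRCm38.p6), where 8 of the 10 genes had a window that could be used. Python 3.11.15 with matplotlib 3.10.9 drew the figures.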

Additional observations from a re-analysis of the deposited data

Results flagged for a closer look

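Of 40 gene and group combinations 1 had an array far from the other 4, where chance gives about 1 in 20: Fos in non-irradiated replicate 2, at 10629, below the other non-irradiated arrays.

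Differences between times that passed the threshold are given as the later minus the earlier log2 signal. From 6 to 24 hours they were -0.65 for Fos, -1.45 for Fosb, -0.80 for Jun, -0.76 for Junb, -0.70 for Egr1, -2.12 for Atf3, -0.52 for Ier2, -1.67 for Ier3, -0.55 for Dusp1 and -1.01 for Nr4a1. From 24 hours to day 14 they were -0.37 for Fos, -1.72 for Fosb, -0.46 for Jun, -0.57 for Ier2, -0.65 for Ier3 and -0.35 for Dusp1. From 6 hours to day 14 they were -1.02 for Fos, -3.17 for Fosb, -1.25 for Jun, -1.30 for Junb, -0.86 for Egr1, -2.40 for Atf3, -1.08 for Ier2, -2.32 for Ier3, -0.89 for Dusp1 and -0.70 for Nr4a1. Of the 24-hour to day 14 differences, those of Fos, Jun and Dusp1 reversed and those of Ier2 and Ier3 lost their call with arrays centred on the median probe set. Of the 6-hour to day 14 differences, those of Egr1 (-0.21, adjusted p = 0.162), Dusp1 (-0.24, 0.0684) and Nr4a1 (-0.054, 0.822) lost their call with that centring.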

How the results depend on the processing

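Scaling was the choice that mattered most. At 24 hours the counts of the 10 genes higher and lower were 1 and 5, but 0 and 3 with quantile normalization or at an adjusted p under 0.01, 3 and 1 with arrays centred on the median probe set, and 3 lower with no intensity trend. At day 14 against non-irradiated they were 5 and 2 with that centring, against 0 and 6. They were 0 and 7 there with quantile normalization, and 0 and 4 with arrays centred on the median gene (chosen after seeing the data). At day 14 against 24 hours they were 2 and 1 with arrays centred on the median probe set, 1 and 2 with the median gene, and 1 higher with array weights or only 2 groups. Centring on the median probe set called 4950 of all genes higher and 1139 lower at 24 hours. From 24 hours to day 14 it called 4971 higher and 1687 lower. Over all genes the calls at day 14 against non-irradiated (4082) were 8671 with centring on the median probe set (8210 higher, 461 lower), 6242 with array weights, 6147 with only 2 groups and 2152 at the stricter threshold, and at 24 against 6 hours (4324) they were 2713 at the stricter threshold.

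With arrays centred on the median probe set the direction turned at 24 hours for Fos (0.22), Jun (0.18), Junb (0.37), Egr1 (0.32) and Dusp1 (0.082). It turned at day 14 for Fos (0.37), Jun (0.24), Junb (0.35), Egr1 (0.68), Ier2 (0.79), Ier3 (0.45), Dusp1 (0.25), Nr4a1 (0.81), Jund (0.34), Mafg (0.37), Atf7 (0.33), Elk3 (0.49), Mrtfa (0.32), Mef2c (0.46) and Map3k5 (0.025). From 24 hours to day 14 it turned for Fos (0.15), Jun (0.062), Egr1 (0.36), Atf3 (0.24) and Dusp1 (0.17). Centring on the median gene turned Egr1 (0.069), Ier2 (0.18) and Nr4a1 (0.20) at day 14, and Egr1 (0.15) and Atf3 (0.028) from 24 hours to day 14. Quantile normalization turned Fos (0.065), Junb (0.22) and Egr1 (0.07) at 24 hours and Junb (0.026) at day 14. The 24-hour value of Junb, near 0, also turned with array weights (0.00085), without 24-hour replicates 2 (0.0040), 3 (0.042) and 5 (0.025), and without non-irradiated replicate 1 (0.094); leaving out 1 array at a time it ran from -0.088 to 0.094. Which scaling is right was not tested.

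Leaving out 1 array at a time, the genes called higher at 6 hours stayed at 10. At 24 hours 0 to 1 were higher and 3 to 5 lower, at day 14 0 higher and 6 to 7 lower. At 24 against 6 hours 9 to 10 were lower, at day 14 against 24 hours 6 to 7, and at day 14 against 6 hours 10. Calls over all genes ran from 4571 to 5141 at 6 hours, 4841 to 5755 at 24 hours and 3153 to 4494 at day 14, and between irradiated groups from 3658 to 4436, 6120 to 7023 and 7350 to 8241. With the replicate number as a block (replicate block) the call of Nr4a1 at 24 hours was lost (adjusted p = 0.0674) and Egr1 at day 14 was called (0.0271); the other 58 of 60 member results kept their direction and side of the threshold. In 8 of 30 same-numbered pairs the array with the same number was the best correlated.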
